A study of Mus musculus with 6 samples.

Results

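Iron enters most cells on transferrin, is stored in ferritin and leaves through ferroportin, and heme oxygenase frees it from heme. When iron is scarce, the iron regulatory proteins bind stem-loops, the iron-responsive elements, in messenger RNAs: bound near the 5′ end they block translation of ferritin and ferroportin, and bound in the 3′ untranslated region they protect the transferrin receptor RNA from decay. RNA levels therefore show only part of this control. Free ferrous iron drives lipid peroxidation, the chemistry behind ferroptosis, a form of cell death.

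The 10 genes described here are Tfrc, Slc11a2 and Steap3 for uptake, Fth1, Ftl1 and Ncoa4 for storage, Slc40a1 for export, Hmox1 for heme breakdown, and Ireb2 and Aco1 for regulation. They were taken by name from the 35275 genes of the deposited table of FPKM (fragment counts divided by transcript length and by the library's depth). The cells were ID8-KMF, a mouse ovarian cancer line of C57Bl6/J origin made by passing ID8 cells through mice, and in all 6 libraries the cells lacked their own Rgnef (gene Arhgef28, a guanine nucleotide exchange factor). The knockout group was 3 libraries of these cells with nothing added, and the GFP-Rgnef group was 3 libraries of the same knockout cells with GFP-tagged Rgnef put back by lentivirus. Cells of both groups grew subconfluent on plastic seeded with Matrigel. Unedited cells were not analysed here, the virus and the tag came only with Rgnef, and the labels do not say whether the knockout was 1 clone or whether the libraries were separate cultures. The p-values therefore speak only of how these 6 libraries vary, and that variation may be technical.

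The deposited values implied 15898965 to 17977069 reads per library. Arhgef28 had 12 to 14 reads per library in the knockout group, against 5067 to 6095 in the GFP-Rgnef group, as the labels say. Of 9 markers of ovarian surface epithelium 7 had a mean of at least 1 FPKM, among them Krt8, Krt18, Krt19 and Wt1, while Krt7 and Lrrn4 stayed below 0.5. None of 8 erythroid, 4 hepatocyte or 4 endothelial markers had a mean of 1 FPKM, and among 8 macrophage markers Cd68 alone did, with Adgre1 and Vsig4 at 0 in all 6 libraries. Summed, the macrophage markers had 2.75 to 4.07 FPKM in knockout libraries and 2.34 to 3.58 in GFP-Rgnef libraries. The erythroid sums were 0.135 to 0.448 FPKM in knockout and 0.215 to 1.11 in GFP-Rgnef libraries, the hepatocyte sums 0.219 to 0.681 and 0.148 to 1.25, and the endothelial sums 0.0824 to 0.263 and 0.150 to 0.203.

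Stem-loops of the form that the iron regulatory proteins read are shown first. A search by letters does not show which genes these proteins act on, and an element of another form would be missed. The search asked for C, any 5 bases, CAGTGN and 5 more bases that pair with the first 5 (G with T allowed), on the sense strand of protein-coding transcripts in GENCODE mouse release M21 (GRCm38, the assembly of the mm10 named by the submitters). Capitals mark the loop, and 6 bases are kept on each side.
Fth1, 5′ untranslated region, chr19:9982732-9982760, plus strand: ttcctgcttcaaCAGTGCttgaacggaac
Ftl1, 5′ untranslated region, chr7:45459779-45459807, minus strand: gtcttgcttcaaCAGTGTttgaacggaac
Slc40a1, 5′ untranslated region, chr1:45925465-45925493, minus strand: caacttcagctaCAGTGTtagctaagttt
Tfrc, 3′ untranslated region, chr16:32631219-32631247, plus strand: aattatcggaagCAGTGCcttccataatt
Tfrc, 3′ untranslated region, chr16:32631598-32631626, plus strand: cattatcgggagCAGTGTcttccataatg
Tfrc, 3′ untranslated region, chr16:32631663-32631691, plus strand: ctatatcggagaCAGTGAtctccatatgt
Tfrc, 3′ untranslated region, chr16:32631710-32631738, plus strand: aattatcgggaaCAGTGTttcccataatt

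Matches were rare in general. Of 10621 tested genes with an annotated 5′ untranslated region, 24 (0.226%) held 1, and of 10650 with a 3′ untranslated region, 93 (0.873%) held at least 1. Tfrc had 4 in its 3′ untranslated region, and no tested gene had more in any part of the transcript. The other 6 genes had no match, which says only that these letters were not found in their annotated protein-coding transcripts.

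**Figure D1:**
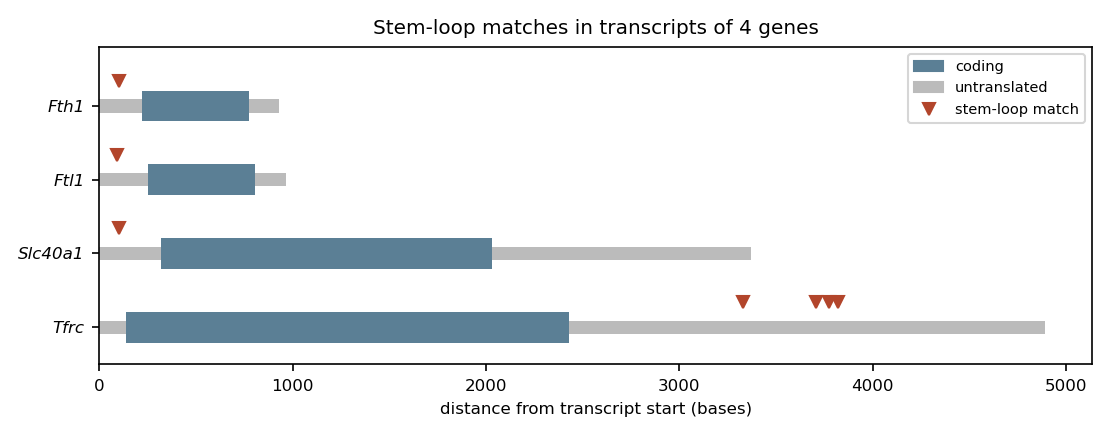
Each bar is a transcript drawn to scale from its start, in bases, with the coding part thick and the untranslated parts thin, and red triangles mark stem-loop matches. Fth1, Ftl1 and Slc40a1 carry 1 match each before the coding part, and Tfrc carries 4 after it.

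The knockout libraries had more RNA of Steap3 and Slc40a1 than the GFP-Rgnef libraries, and for the other 8 genes the difference did not pass the test. Steap3 was 5.67-fold higher and Slc40a1 2.55-fold higher, both at low levels. Of the 10 genes 2 rose (limma, adjusted p below 0.05 over 11500 tested genes), where 8.04% of tested genes rose, and 0 fell, where 5.34% fell and 13.4% changed in either direction. At an unadjusted p below 0.05, 4 were higher and 1 lower, where 1718 of the 11500 were higher and 1551 lower. On recovered reads limma's voom called 2 of the 10 higher and 0 lower, where it called 994 of all tested genes higher and 576 lower. Their median difference was 0.12 on the log2(FPKM + 1) scale, knockout minus GFP-Rgnef as everywhere below, beside -0.02 for all tested genes. The groups did not overlap for 3 of the 10, Steap3, Slc40a1 and Slc11a2, where 33.4% of tested genes did not overlap. In 2 of these the knockout was higher (16.7% of tested genes) and in 1 it was lower (16.7%). All 10 passed the filter of a mean of at least 0.5 FPKM, Steap3 only through the knockout group. In bulk RNA a change per cell and a change in the share of cells that express a gene cannot be told apart.

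**Figure D2:**
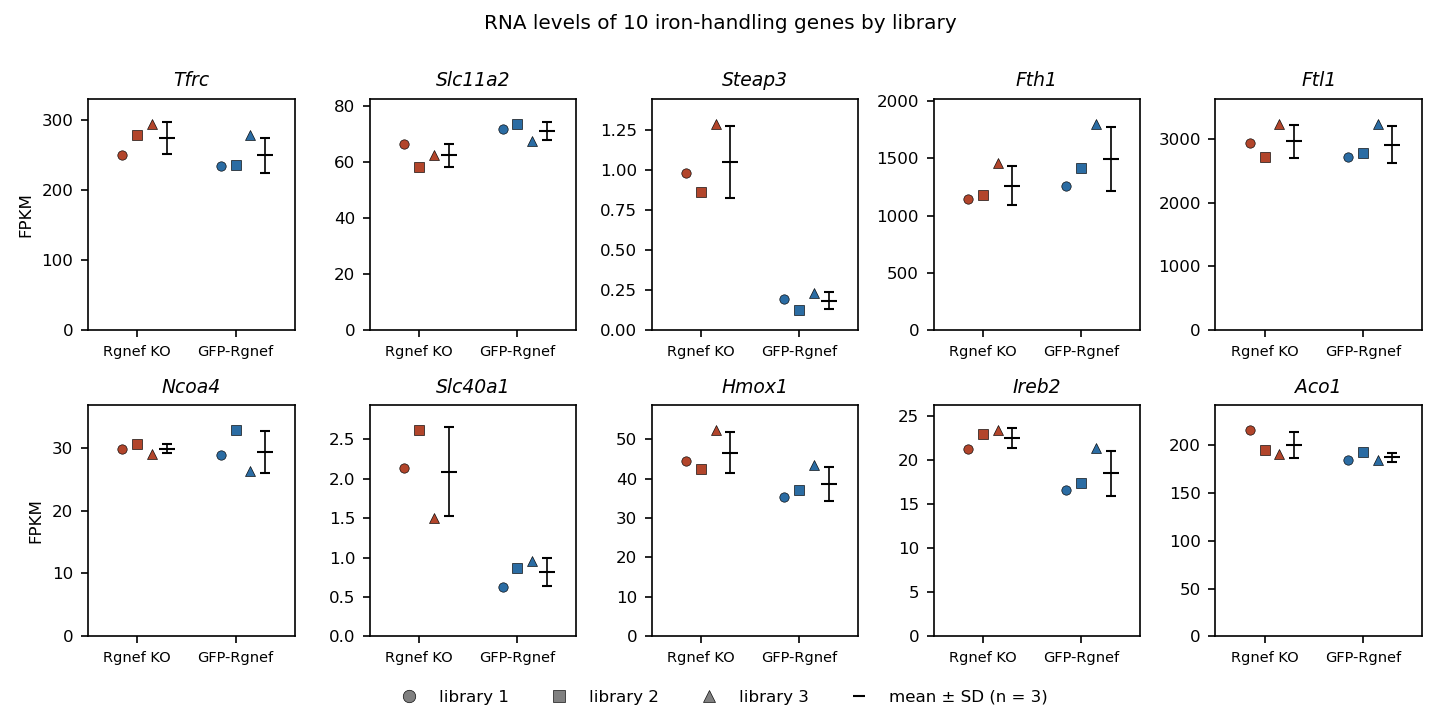
Points give the FPKM of each library for each of the 10 genes, with the knockout group left and the GFP-Rgnef group right, symbols for the library number and bars for the mean ± SD of 3 libraries. The groups of Steap3 lie far apart. Those of Slc40a1 lie closer, with knockout library 3 (1.5 FPKM) nearest to GFP-Rgnef library 3 (0.958 FPKM). For most other genes the groups overlap.

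Uptake of iron bound to transferrin starts with Tfrc, the transferrin receptor (ENSMUSG00000022797, GRCm38 chromosome 16, 32608920 to 32632794, plus strand). It had 250.0, 278.9 and 294.9 FPKM in the knockout libraries, against 234.5, 236.4 and 278.3 in the GFP-Rgnef libraries. The groups overlapped, because GFP-Rgnef library 3 lay above knockout library 1. The difference was 0.14 (SE 0.0905, 95% interval -0.07 to 0.35, limma adjusted p = 0.37).

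Slc11a2 encodes DMT1, which moves ferrous iron out of the endosome (ENSMUSG00000023030, chromosome 15, 100387898 to 100425072, minus strand). It had 66.5, 58.3 and 62.3 FPKM in the knockout libraries and 71.8, 73.6 and 67.5 FPKM in the GFP-Rgnef libraries. All 3 knockout libraries lay below all 3 GFP-Rgnef libraries, by little. The difference of -0.18 (SE 0.0721, 95% interval -0.35 to -0.02) did not pass after adjustment (limma adjusted p = 0.137).

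Steap3 encodes the endosomal reductase that turns ferric into ferrous iron before DMT1 can move it (ENSMUSG00000026389, chromosome 1, 120190757 to 120272705, minus strand). It had 0.983, 0.862 and 1.29 FPKM in the knockout libraries, from 53, 45 and 65 reads, against 0.196, 0.126 and 0.232 FPKM in the GFP-Rgnef libraries, from 10, 6 and 12 reads. Every knockout library was above every GFP-Rgnef library by a wide margin. The difference was 0.78 (SE 0.136, limma adjusted p = 0.00885). With any 1 library left out it stayed called, with limma adjusted p from 0.0197 to 0.0416. Its mean in GFP-Rgnef libraries, 0.184 FPKM, was below the filter of 0.5 FPKM, so it was tested only through the knockout group. The added 1 shrinks the change of so low a gene: with 0.1 in its place the difference was 2.01, and from recovered reads with voom it was 2.45.

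The 5 tested genes whose pattern over the 6 libraries was most like that of Steap3 were Ldlrad4, Styk1, Cpq, Cercam and Loxl3. Likeness was the mean absolute difference between the deviations of log2(FPKM + 1) from each gene's mean, and it was 0.0358 for Ldlrad4 and 0.0534 for Loxl3. Ldlrad4 had 1.23 ± 0.332 FPKM in knockout and 0.254 ± 0.0502 FPKM in GFP-Rgnef libraries (SD, n = 3), and Loxl3, a lysyl oxidase, had 3.70 ± 0.567 and 1.58 ± 0.156.

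Storage rests on ferritin, a shell of heavy chains, which oxidise iron, and light chains. Fth1, the heavy chain gene (ENSMUSG00000024661, chromosome 19, 9980598 to 9985098, plus strand), had 1145.5, 1180.7 and 1462.0 FPKM in the knockout libraries and 1262.5, 1415.0 and 1803.5 FPKM in the GFP-Rgnef libraries. Library 3 was the highest in each group and the groups overlapped. The difference was -0.23 (SE 0.141, 95% interval -0.56 to 0.09, limma adjusted p = 0.326). With 1 library left out it lay between -0.35 (without GFP-Rgnef library 1) and -0.09 (without GFP-Rgnef library 3).

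Ftl1, the light chain gene (ENSMUSG00000050708, chromosome 7, 45457944 to 45459884, minus strand), had 2933.3, 2712.2 and 3238.7 FPKM in the knockout libraries, against 2716.1, 2773.0 and 3236.7 in the GFP-Rgnef libraries. The groups covered nearly the same range, with a difference of 0.03 (SE 0.0926, 95% interval -0.19 to 0.24, limma adjusted p = 0.893). Both ferritin genes have near-identical processed copies, so their reads are uncertain. The copy rows were low: Ftl1-ps1 had 133 reads over the knockout and 147 over the GFP-Rgnef libraries, where Ftl1 had 124877 and 118431. Reads of Fth1 and Ftl1 together made up 0.322% to 0.389% of each knockout library and 0.329% to 0.418% of each GFP-Rgnef library.

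The ratio of Fth1 to Ftl1 FPKM was lower in every knockout library than in every GFP-Rgnef library. It was 0.391, 0.435 and 0.451 in the knockout libraries and 0.465, 0.510 and 0.557 in the GFP-Rgnef libraries. A two-sided exact permutation test of the means gave p = 0.1, the smallest that 3 against 3 allows, so the ratio cannot pass at 0.05. The ratio was chosen after its values were seen, and its size depends on the transcript lengths behind the FPKM, which are the same in all libraries. Ftl1 lies on chromosome 7, where the median difference of all tested genes was 0.24.

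**Figure D3:**
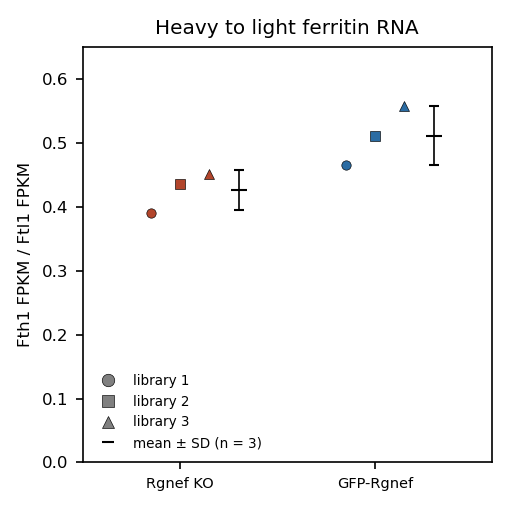
The Fth1 to Ftl1 ratio of FPKM is plotted for each library, knockout left and GFP-Rgnef right, with the mean ± SD of 3 libraries (0.426 ± 0.0316 and 0.511 ± 0.0462). The groups do not overlap, and in each group library 3 is the highest.

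Ncoa4, the receptor that carries ferritin to the lysosome for breakdown (ENSMUSG00000056234, chromosome 14, 32159865 to 32179855, plus strand), had 29.7, 30.5 and 29.0 FPKM in the knockout libraries and 28.8, 32.8 and 26.3 FPKM in the GFP-Rgnef libraries. The knockout libraries lay within the range of the GFP-Rgnef libraries. The difference was 0.03 (SE 0.0884, 95% interval -0.18 to 0.23, limma adjusted p = 0.893).

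Export depends on Slc40a1, ferroportin, the one known iron exporter of mammalian cells (ENSMUSG00000025993, chromosome 1, 45908068 to 45926523, minus strand). It had 2.14, 2.62 and 1.5 FPKM in the knockout libraries, from 58, 69 and 38 reads, and 0.622, 0.874 and 0.958 FPKM in the GFP-Rgnef libraries, from 16, 21 and 25 reads. The groups did not overlap, although knockout library 3 came closest to the GFP-Rgnef range. The difference was 0.75 (SE 0.162, limma adjusted p = 0.0205), 1.24 with 0.1 added in place of 1 and 1.32 from recovered reads with voom. The call was lost when knockout 1, knockout 2, GFP-Rgnef 1 or GFP-Rgnef 2 was left out, with limma adjusted p of 0.0652, 0.0779, 0.0717 and 0.0622 and differences of 0.63 to 0.78. Macrophages, which recycle iron, are rich in ferroportin. Of their 8 markers, 5 had higher means in the knockout group: Cd68 had 2.83 FPKM in knockout and 2.62 in GFP-Rgnef libraries (limma adjusted p = 0.85), and Cd163, C1qa, Lyz2 and Csf1r had 0.04 to 0.188 FPKM in knockout and 0.0228 to 0.0633 in GFP-Rgnef libraries. Adgre1 and Vsig4 were at 0 and Ptprc was at 0 in the knockout libraries. The part of such cells in the Slc40a1 difference was not tested. Slc40a1 and Steap3 both lie on chromosome 1, where the median difference was -0.02 and 5.49% of 656 tested genes rose.

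Hmox1 encodes the inducible heme oxygenase, which opens heme and frees its iron (ENSMUSG00000005413, chromosome 8, 75093621 to 75100589, plus strand). It had 44.5, 42.5 and 52.3 FPKM in the knockout libraries and 35.3, 37.2 and 43.5 FPKM in the GFP-Rgnef libraries. Library 3 was the highest in each group, and GFP-Rgnef library 3 reached into the knockout range. The difference was 0.26 (SE 0.105, 95% interval 0.02 to 0.50, limma adjusted p = 0.149). With libraries 1 and 2 of each group alone it was 0.26 again and passed (limma adjusted p = 0.0353). Hmox1 is a textbook target of NRF2, whose targets include both ferritin genes and Slc40a1. These 4 genes differed by 0.26, -0.23, 0.03 and 0.75 for Hmox1, Fth1, Ftl1 and Slc40a1.

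Regulation is by Aco1 and Ireb2, which encode the iron regulatory proteins. Aco1 (ENSMUSG00000028405, chromosome 4, 40143081 to 40198338, plus strand), whose protein is also the cytosolic aconitase, had 216.0, 195.2 and 190.7 FPKM in the knockout libraries and 184.4, 192.9 and 185.1 FPKM in the GFP-Rgnef libraries. The groups overlapped, and the difference was 0.10 (SE 0.0664, 95% interval -0.06 to 0.25, limma adjusted p = 0.398).

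Ireb2, whose protein is destroyed when iron is plentiful (ENSMUSG00000032293, chromosome 9, 54863789 to 54912530, plus strand), had 21.2, 22.9 and 23.4 FPKM in the knockout libraries and 16.6, 17.4 and 21.4 FPKM in the GFP-Rgnef libraries. GFP-Rgnef library 3 alone reached the knockout range. The difference of 0.28 (SE 0.103, 95% interval 0.04 to 0.51) did not pass (limma adjusted p = 0.12), but it passed without GFP-Rgnef 3 (0.38, limma adjusted p = 0.0264) and with libraries 1 and 2 alone (0.35, limma adjusted p = 0.0186). On chromosome 9, 36.6% of 639 tested genes rose, with a median difference of 0.28. With the median of each chromosome removed from each library, Ireb2 differed by -0.02, Ftl1 on chromosome 7 by -0.22, Steap3 by 0.81 and Slc40a1 by 0.78.

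**Figure D4:**
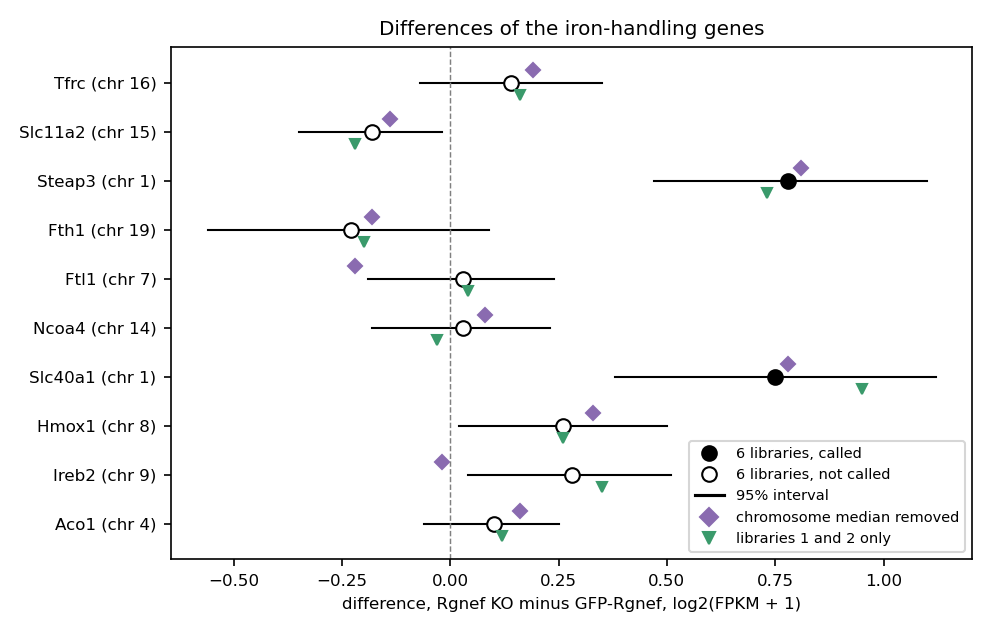
Circles give the difference of each gene, knockout minus GFP-Rgnef in log2(FPKM + 1), filled where called, with lines for the 95% interval, diamonds for the value after the chromosome median is removed and triangles for libraries 1 and 2 alone. Steap3 (0.78) and Slc40a1 (0.75) stand to the right, and the diamonds of Ireb2 (-0.02) and Ftl1 (-0.22) lie left of their circles.

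The libraries numbered 3 stood apart within both groups. For 6 of the 10 genes, Tfrc, Steap3, Fth1, Ftl1, Hmox1 and Ireb2, library 3 was the highest of its group in both groups, as for 26.0% of tested genes. For Fth1 library 3 was 1.26 times the mean of the other two in the knockout group and 1.35 times in the GFP-Rgnef group, and Aco1 was below that mean in both, at 0.928 and 0.981 times. With libraries 1 and 2 alone, 4 of the 10 genes were called higher, Steap3, Slc40a1, Hmox1 and Ireb2, and 0 lower, where 1273 of 11500 tested genes were higher and 1048 lower. What set the libraries numbered 3 apart was not tested.

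In FPKM the order of levels was Ftl1, Fth1, Tfrc, Aco1, Slc11a2, Hmox1, Ncoa4, Ireb2, Slc40a1 and Steap3. The ranges of neighbours over all 6 libraries did not touch, other than those of Slc40a1 and Steap3. This order rests on the authors' lengths. The length behind the FPKM equals the mean length of the annotated transcripts for Slc11a2, Steap3, Slc40a1 and Aco1, and for Tfrc, where it was found by search, it was 1970 bases, while its longest coding transcript has 4890. Comparisons between groups are unaffected by this, but levels between genes are. Per kilobase of the longest coding transcript and scaled to the same depth, Hmox1 had 28.5 ± 3.19 in knockout and 23.7 ± 2.62 in GFP-Rgnef libraries, Ireb2 had 22.6 ± 1.18 and 18.6 ± 2.59, and Slc11a2 had 19.0 ± 1.24 and 21.6 ± 0.958 (SD, n = 3). On this scale Ireb2 and Hmox1 were above Slc11a2 in the knockout means, whereas in FPKM Slc11a2 was above both.

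Around the 10 genes, 92 further genes of iron and heme handling were listed, of which 73 passed the filter on low values. Of these 5 rose and 9 fell, with a median difference of -0.05, where 8.04% of all tested genes rose and 5.34% fell. Of the 5 that rose, Pcbp4, Glrx3 and Fdx1 lie on chromosome 7 or 9. The number that fell was 0 when knockout 2 or GFP-Rgnef 2 was left out, 1 when GFP-Rgnef 1 was, 2 when knockout 1 was, 3 without a filter, 5 with TPM scaling or without limma's trend, and 1 after chromosome medians were removed. The number that rose was 1 when GFP-Rgnef 2 was left out and 3 when knockout 1, GFP-Rgnef 1 or GFP-Rgnef 3 was, and also 3 without a filter, without limma's trend or after chromosome medians were removed.

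Among uptake genes 1 of 9 rose and 0 fell, where 8.04% of all tested genes rose and 5.34% fell. At an unadjusted p below 0.05, 1 was higher and 2 lower, and voom called 1 higher and 0 lower. Slc39a8, a transporter of zinc, manganese and iron also called ZIP8, had 1.19, 1.13 and 1.04 FPKM in the knockout libraries and 0.277, 0.240 and 0.443 in the GFP-Rgnef libraries (difference 0.69, SE 0.126, limma adjusted p = 0.011). The groups were far apart, but its mean in GFP-Rgnef libraries was below the filter, so it was tested only through the knockout group. These values came from 73, 67 and 59 reads in the knockout libraries and 16, 13 and 26 in the GFP-Rgnef libraries. It stayed called in 5 of the 6 fits without 1 library (limma adjusted p from 0.0163 to 0.0519). Among the further uptake genes, which leave out Tfrc, the most abundant was Snx3, a sorting nexin that recycles the transferrin receptor, with 107.5 ± 5.37 FPKM in knockout and 113.9 ± 2.62 in GFP-Rgnef libraries (limma adjusted p = 0.437). Trf (transferrin), Steap4 and Cybrd1 were below the filter.

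Of 5 cytosolic iron carriers 2 rose and 0 fell, where 8.04% of all tested genes rose and 5.34% fell. At an unadjusted p below 0.05, 3 were higher and 0 lower, and voom called 2 higher and 0 lower. Of the 5, 3 lie on chromosome 7 or 9, both that rose among them, and on these chromosomes 470 of 1458 tested genes rose. Pcbp4, an RNA-binding relative of the iron chaperone Pcbp1, had 85.5 ± 5.82 FPKM in knockout and 54.3 ± 4.40 in GFP-Rgnef libraries, and Glrx3, a glutaredoxin that carries iron-sulfur clusters, had 87.4 ± 4.85 and 67.2 ± 1.51 (SD, n = 3). Their limma adjusted p was 0.00298 and 0.00921. Pcbp4 lies on chromosome 9 and Glrx3 on chromosome 7. With chromosome medians removed they differed by 0.35 and 0.12 (limma adjusted p = 0.0302 and 0.358). Pcbp1, which delivers iron to ferritin, had 306.7 ± 14.2 FPKM in knockout and 320.3 ± 26.8 FPKM in GFP-Rgnef libraries (limma adjusted p = 0.675). Of 2 further genes listed under storage, Herc2 and Hmgb1, 0 passed (1 was higher at an unadjusted p below 0.05, while voom called 0). Neither encodes a ferritin chain. Hmgb1, a chromatin protein and the more abundant, had 1173.3 ± 98.6 FPKM in knockout and 1186.3 ± 83.2 in GFP-Rgnef libraries.

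In export, Cp, the ferroxidase ceruloplasmin that works beside ferroportin, fell, with 26.7, 24.3 and 28.0 FPKM in the knockout libraries against 31.7, 36.7 and 43.7 in the GFP-Rgnef libraries (difference -0.48, SE 0.116, limma adjusted p = 0.0312). It was 1 of 3 tested genes of this group and none rose, where 5.34% of all tested genes fell and 8.04% rose. At an unadjusted p below 0.05, 1 was higher and 1 lower, and voom called 0 higher and 1 lower. The groups of Cp did not overlap, its exons overlap those of Hps3 on the other strand, and it stayed called in 2 of the 6 fits without 1 library (limma adjusted p from 0.023 to 0.119). Hamp, the gene of the hormone hepcidin that removes ferroportin, was not tested: it had 0 reads in the knockout libraries and 4, 0 and 1 in the GFP-Rgnef libraries.

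In heme breakdown and transport 1 of 9 genes rose and 0 fell, where 8.04% of all tested genes rose and 5.34% fell. At an unadjusted p below 0.05, 1 was higher and 5 lower, where 1718 of 11500 tested genes were higher and 1551 lower. By voom 1 was higher and 0 lower. Abcg2, an efflux pump that also carries porphyrins, had 75.6 ± 3.97 FPKM in knockout and 62.9 ± 2.44 in GFP-Rgnef libraries (limma adjusted p = 0.0395), and was called in 0 of the 6 fits without 1 library, with limma adjusted p from 0.0516 to 0.161. Slc48a1, the heme transporter HRG1 and the most abundant of the group, had 80.5 ± 8.80 and 97.1 ± 4.11 FPKM (limma adjusted p = 0.0758). Blvrb, a biliverdin reductase, had the difference of largest size in the group (-0.89, SE 0.301, limma adjusted p = 0.0928). Its FPKM was 8.33, 6.84 and 13.8 in the knockout libraries and 12.9, 16.0 and 28.0 in the GFP-Rgnef libraries. It lies on chromosome 7 and was singled out after its values were seen, and knockout library 3 lay above GFP-Rgnef library 1.

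In heme synthesis 1 of 9 genes fell and 0 rose, where 5.34% of all tested genes fell and 8.04% rose. At an unadjusted p below 0.05, 2 were higher and 2 lower, while voom called 0 higher and 0 lower. The gene that fell was Urod, uroporphyrinogen decarboxylase, with 27.5 ± 1.79 FPKM in knockout and 33.2 ± 1.09 FPKM in GFP-Rgnef libraries. It was just within the threshold (limma adjusted p = 0.0497) and called in 1 of the 6 fits without 1 library. Neither voom nor the fit with chromosome medians removed (limma adjusted p = 0.152) called it. Alad, the most abundant, had 64.3 ± 2.26 and 71.4 ± 5.24 FPKM (limma adjusted p = 0.231). Of 6 regulators 0 passed (1 was lower by voom, and 1 at an unadjusted p below 0.05). Skp1, a subunit of the ubiquitin ligase that degrades the Ireb2 protein, was the most abundant, with 239.1 ± 24.2 FPKM in knockout and 255.4 ± 24.5 in GFP-Rgnef libraries (limma adjusted p = 0.582). Bach1, the heme-sensing repressor of Hmox1, had 11.9, 11.8 and 13.2 FPKM in the knockout libraries and 14.2, 15.7 and 17.2 in the GFP-Rgnef libraries (limma adjusted p = 0.0559), and was named after its values were seen.

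Genes of mitochondrial iron and iron-sulfur cluster assembly fell in 7 of 30 cases and rose in 1, with a median of -0.13, where 5.34% of all tested genes fell and 8.04% rose. By voom 5 were lower and 0 higher, so the 1 rise was lost, where 576 of 11500 tested genes were lower and 994 higher. At an unadjusted p below 0.05, 10 were lower and 2 higher, where 1551 of all tested genes were lower and 1718 higher. Ciao2b, of the complex that places clusters into cytosolic and nuclear proteins, had 46.7 ± 2.98 FPKM in knockout and 59.5 ± 3.97 in GFP-Rgnef libraries. Slc25a39, a mitochondrial carrier, had 192.3 ± 11.1 and 232.5 ± 6.02, Nubp2, a cytosolic scaffold for clusters, had 40.9 ± 0.773 and 51.1 ± 3.97, and Fdxr, ferredoxin reductase, had 14.7 ± 1.27 and 19.6 ± 1.8 (SD, n = 3). The differences of these 4 lay between -0.39 and -0.27 (limma adjusted p 0.0263 to 0.0344), but with 1 library left out Ciao2b, Slc25a39 and Fdxr were called in 2 of 6 fits and Nubp2 in 1. With chromosome medians removed none of the 4 was called (limma adjusted p 0.0621 to 0.0901). Nfs1 and Ciapin1 were also called lower and Fdx1 on chromosome 9 higher, all named after their values were seen. With 1 library left out Ciapin1 and Fdx1 were called in 1 of 6 fits and Nfs1 in 0, and with chromosome medians removed none was called (limma adjusted p 0.077 for Nfs1, 0.137 for Ciapin1 and 0.471 for Fdx1). Exons of Nfs1 and Ciapin1 overlap other expressed genes. Hspa9, the mitochondrial chaperone and most abundant of the 30, had 631.3 ± 20.3 and 653.9 ± 10.9 FPKM (limma adjusted p = 0.616).

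**Figure D5:**
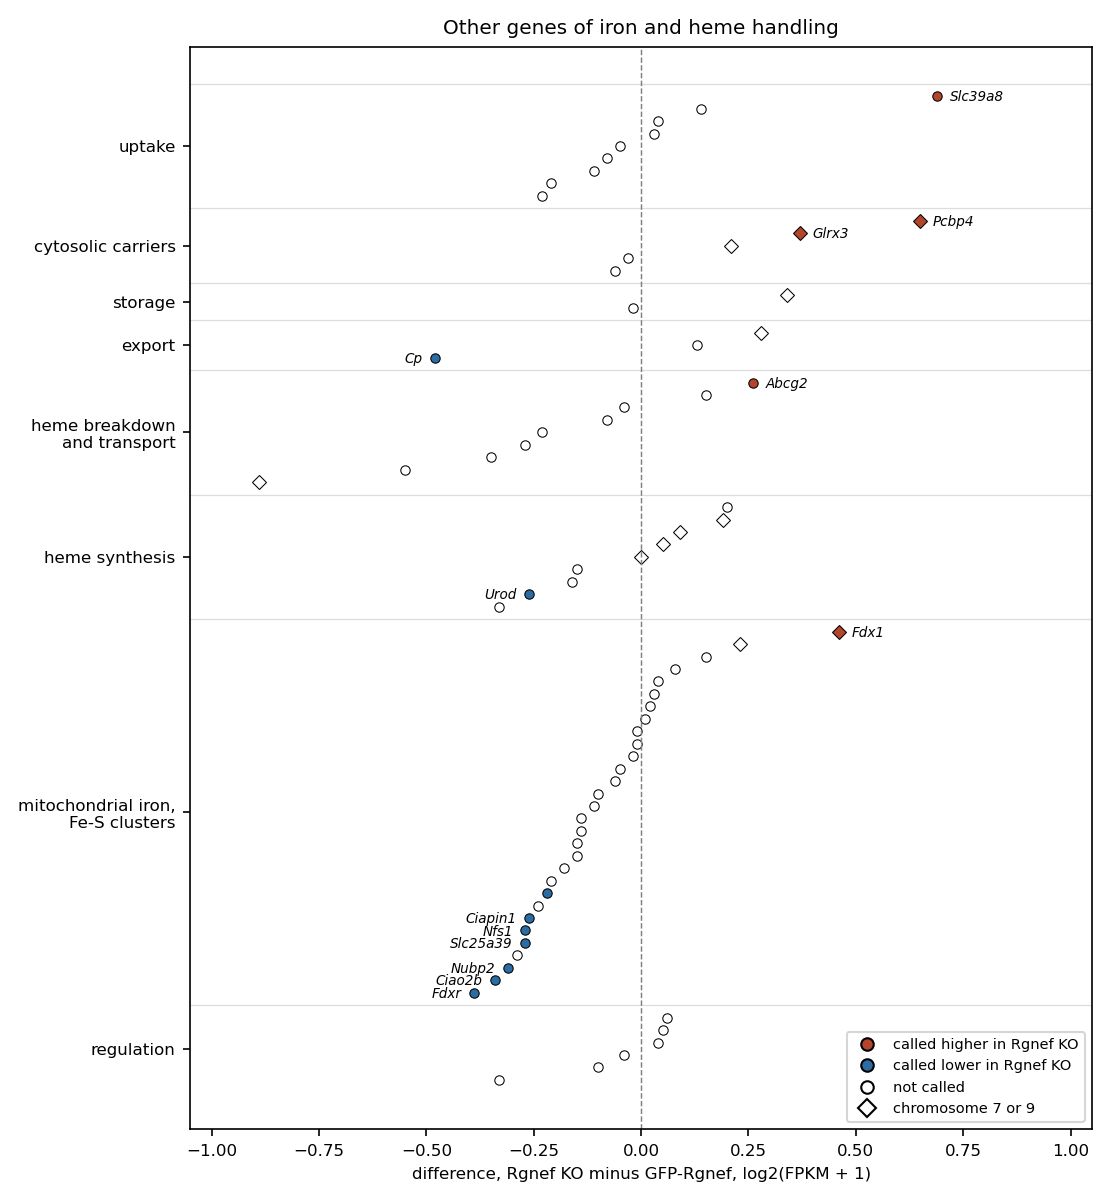
Each point is the difference of 1 of the 73 tested genes, knockout minus GFP-Rgnef in log2(FPKM + 1), set out by role, coloured where called (labels give the called genes described above) and drawn as a diamond on chromosome 7 or 9. Slc39a8 (0.69) and Pcbp4 (0.65) are the highest, and most of the called lower genes belong to mitochondrial iron and iron-sulfur clusters.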

How the data were processed

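Poly-A RNA of 6 libraries was prepared with the NEBNext Ultra RNA kit, per the labels' protocols, which name no strand-specific step, so reads of overlapping genes on opposite strands may be mixed. The submitters' processing notes name CASAVA 1.8, TopHat2 2.0.9, DESeq2 and mm10; the counting tool and annotation are not given in the sources used here. The authors deposited FPKM per gene for each library in 1 table of 35275 genes. Symbols came from GENCODE mouse release M21, which matched 34490 identifiers.

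Genes with a mean of at least 0.5 FPKM over all libraries were tested (11500) with limma 3.58.1 in R 4.3.3, with its trend option, on log2(FPKM + 1), with Benjamini-Hochberg adjustment and calls at an adjusted p below 0.05. Fold changes on this scale understate the change of low genes. Whole reads were recovered for 99.99% of the 19655 genes above 0 (tolerance 0.02 reads): the authors' length was the mean annotated transcript length for 11410 genes and was found by search for 8127. Reads were tested with limma's voom as an alternative. Single values were compared by two-sided exact permutation tests in scipy 1.17.1. The limma step was tested on simulated data.

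The 10 genes, the wider list and the tests were chosen with earlier results of these data known. All 10 genes are named. From the wider list each role names its called genes, up to 4 with the smallest p, and its most abundant gene; 1 called gene is counted but its own values are not reported here. The genes most like Steap3 in pattern follow it because Steap3 had the largest difference among the called genes. Alternatives changed the pseudocount, filter, scaling, variance model, replicate block, chromosome centring and libraries used.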

Additional observations from a re-analysis of the deposited data

How the results depend on the processing

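Over 16 alternative settings the 10 genes gave 158 differences, of which 141 kept direction and side of the threshold, 4 lost the call (Slc40a1, each time with 1 library left out), 6 gained it and 7 changed sign. The sign changes were Ftl1 with chromosome centring (-0.22), without knockout 3 (-0.04), GFP-Rgnef 1 (-0.02) or GFP-Rgnef 2 (-0.01), Ncoa4 without GFP-Rgnef 3 (-0.05) or with libraries 1 and 2 alone (-0.03), and Ireb2 with chromosome centring (-0.02). Without 1 library Ftl1 lay between -0.04 and 0.11 and Ncoa4 between -0.05 and 0.11. Without 1 library, 1 to 3 of the 10 genes were called higher (2 with all libraries) and 0 to 0 lower. With libraries 1 and 2 alone 4 were higher. With a mean of at least 5 FPKM 0 were higher, since Steap3 and Slc40a1 are then not tested. Steap3 kept its call in every setting that tested it.

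Of all tested genes 925 were higher and 614 lower. Without 1 library these were 455 to 850 and 198 to 578, with chromosome centring 495 and 388, with no filter 394 were lower, and with libraries 1 and 2 alone 1048 were lower. Of the wider list 5 were higher and 9 lower. Without 1 library these were 1 to 4 and 0 to 7, with no filter 3 and 3, without the trend 3 and 5, with chromosome centring 3 and 1, and with TPM scaling 5 were lower. The cause was not tested.

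With the replicate number as a block, 1517 of all tested genes were higher and 1253 lower, 4 of the 10 genes were higher and 1 lower (Fth1, -0.23, limma adjusted p = 0.0159), and 9 of the wider list were higher and 17 lower. Same-numbered libraries correlated by 0.321, -0.0199 and 0.552 for numbers 1, 2 and 3 in their deviations from the group means. The libraries numbered 3 correlated with those of other numbers by -0.2 at most. For numbers 1 and 2 the highest correlation with another number was 0.399. A pairing by number is therefore not established for all libraries. Not every library correlated best with its own number.

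The low read numbers of Steap3 (28 in the GFP-Rgnef group) and Slc40a1 (62) limit their fold changes, and 3 libraries a group limit the rest.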
